A study of Mus musculus with 14 samples.

Results

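The S100 genes encode small EF-hand calcium-binding proteins, and 10 of them, chosen by symbol from the 37680 genes of the count table, are described here across WT and Smad4 KO mouse colon epithelium on water and after DSS. They are S100a8, S100a9, S100a1, S100a4, S100a6, S100a10, S100a11, S100a14, S100a16 and S100g. S100a8 and S100a9 were named because their counts had been seen to be higher in the Smad4 KO than in the WT epithelium after DSS, so their values after DSS are given as a description, without a test. All 10 genes passed the filter of at least 10 counts in at least 3 libraries, which left 15127 genes for testing.

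RNA-seq was done on epithelium that had been separated from the whole colon with 5 mM EDTA. The 4 groups were WT on water (4 libraries), Smad4 KO on water (4 libraries), WT given DSS at 2.5% of the drinking water for 3 d (3 libraries) and Smad4 KO given the same (3 libraries). DSS, or dextran sulfate sodium, damages the lining of the colon when it is drunk. The mice were of a C57/BL6-enriched background and 8 to 14 wk of age. The conditional Smad4 f/f allele was deleted by Villin-CreERT2, a tamoxifen-inducible recombinase under the villin promoter, which acts along the whole intestinal epithelium. Tamoxifen was injected at 0.05 g/kg per day for 4 d, and the treatment scheme of the study shows it for the Smad4 KO mice only, so that tamoxifen and the genotype cannot be told apart here.

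S100 proteins act as dimers that change shape on binding calcium. S100A8 and S100A9 together form calprotectin, which sequesters zinc and manganese from microbes, is stored in bulk in the cytosol of neutrophils and can also be made by injured or inflamed epithelia. Fecal calprotectin is a clinical measure of intestinal inflammation. Released calprotectin is recognized by Tlr4 and by the receptor for advanced glycation end products, encoded by Ager. Most of the other members act inside the cell. S100A10 binds annexin A2, S100A11 binds annexin A1, S100A6 binds the calcyclin-binding protein encoded by Cacybp, and S100A4 binds nonmuscle myosin encoded by Myh9. S100g encodes calbindin-D9k, a calcium buffer of the absorptive epithelium and a target of the vitamin D receptor.

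In the mm9 build, 9 of the 10 genes lay on chromosome 3 between 90314956 and 93368565, a stretch of 3.05 Mb. S100a8 (ENSMUSG00000056054) lay on the plus strand from 90472993 to 90473956, and S100a9 (ENSMUSG00000056071) on the minus strand from 90496554 to 90499643. The 2 genes are separated by 22597 bp. S100g (ENSMUSG00000040808) lay on chromosome X from 159399924 to 159402531 on the minus strand, inside Ctps2 on the opposite strand, with 0 bp of exon shared. How the counting treated strand is not given in the sources used here, so reads of S100g and Ctps2 introns could not be told apart by strand.

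The promoters of S100a8 and S100a9 are shown because these 2 genes were the ones named for higher counts in the Smad4 KO after DSS. Both come from RefSeq (GRCm38.p6), run from 250 bases before to 50 bases after the annotated transcript start, and were located at chr3:90668821-90669120 on the plus strand for S100a8 and chr3:90695672-90695971 on the minus strand for S100a9. Capitals mark TATAAA in both and, near the 5′ end of the S100a9 window, a match to the C/EBP motif TTGCNNAA.
S100a8: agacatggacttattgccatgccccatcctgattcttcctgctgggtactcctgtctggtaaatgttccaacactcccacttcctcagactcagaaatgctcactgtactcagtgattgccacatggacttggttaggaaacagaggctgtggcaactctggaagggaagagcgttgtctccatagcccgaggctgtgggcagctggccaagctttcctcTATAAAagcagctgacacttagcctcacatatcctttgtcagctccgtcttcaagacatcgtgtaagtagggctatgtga
S100a9: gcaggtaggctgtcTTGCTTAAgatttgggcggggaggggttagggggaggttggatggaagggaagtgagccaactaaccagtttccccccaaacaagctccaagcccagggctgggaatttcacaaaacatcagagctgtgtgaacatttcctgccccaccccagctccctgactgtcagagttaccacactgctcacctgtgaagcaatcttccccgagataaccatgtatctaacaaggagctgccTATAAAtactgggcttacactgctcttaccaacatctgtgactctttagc

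TATAAA began at -30 from the annotated start of S100a8 and at 0, the start itself, in S100a9. TATAAA was also found in the windows of S100a4, at -31, and S100g, at 0, making 4 of the 9 windows of these genes. Of the 32851 promoter windows of the same length, 13.6% held TATAAA on either strand, and this motif was added after the sequences had been seen. The C/EBP match of S100a9 began at -236, and 10.8% of all windows held a match. RefSeq windows were found for 8 of the 10 genes (9 windows, since S100a16 had a second start), and among them S100g also held a C/EBP match. The AP-1 motif TGANTCA, present in 7.81% of all windows, was found in the windows of S100a11 and S100a16. No window of these genes held the STAT motif TTCNNNGAA (8.3% of all windows), the palindromic SMAD box GTCTAGAC (0.213%) or the NF-kB motif (8.46%). These matches are a description of the letters in the windows and were not measured as binding sites.

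Total counts ran from 12882827 to 26087231 per library, and mitochondrial genes held 4.05% to 32.8% of them, the highest being WT water replicates 4 (32.8%) and 3 (30.6%) and Smad4 KO water replicate 4 (21.4%). Normalized counts are counts scaled by library total and TMM factor. The library labelled Smad4 KO water replicate 1 had 3165 normalized counts of Smad4, near the WT water mean of 2672 ± 371 (SD, n = 4), while Smad4 KO water replicates 2 to 4 had 793 ± 126 (SD, n = 3). It was kept under its label, and the water values of the S100 genes are given with and without it. After DSS, Smad4 was at 848 ± 35.9 in the Smad4 KO against 3517 ± 123 for WT (SD, n = 3 each, log2 fold change -2.05, SE 0.09, edgeR quasi-likelihood adjusted p = 1.5e-05). All 14 colon epithelium markers, such as Epcam, Vil1 and Cdx2, passed the count filter. In such bulk samples, fewer cells of a type and less RNA per cell cannot be told apart.

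The level of the S100 genes per kb of exon, the scale on which different genes can be compared, set S100a6 above all others. It ran from 12488 to 37617 normalized counts per kb over the 14 libraries, and S100a11, the next, from 5847 to 11552, so that the 2 ranges did not overlap. S100a6 alone held 38.7% to 57.5% of the summed level of the 10 genes in a library. S100a11, S100a10, S100a16, S100a14 and S100a1 followed with ranges that overlapped from each gene to the next, and S100g overlapped S100a1. S100a8, S100a9 and S100a4 formed the low end. S100a8 and S100a9 together made up 0% to 0.714% of the summed level on water, 0.0727% to 0.229% in WT after DSS and 0.854% to 1.75% in the Smad4 KO after DSS.

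**Figure D1:**
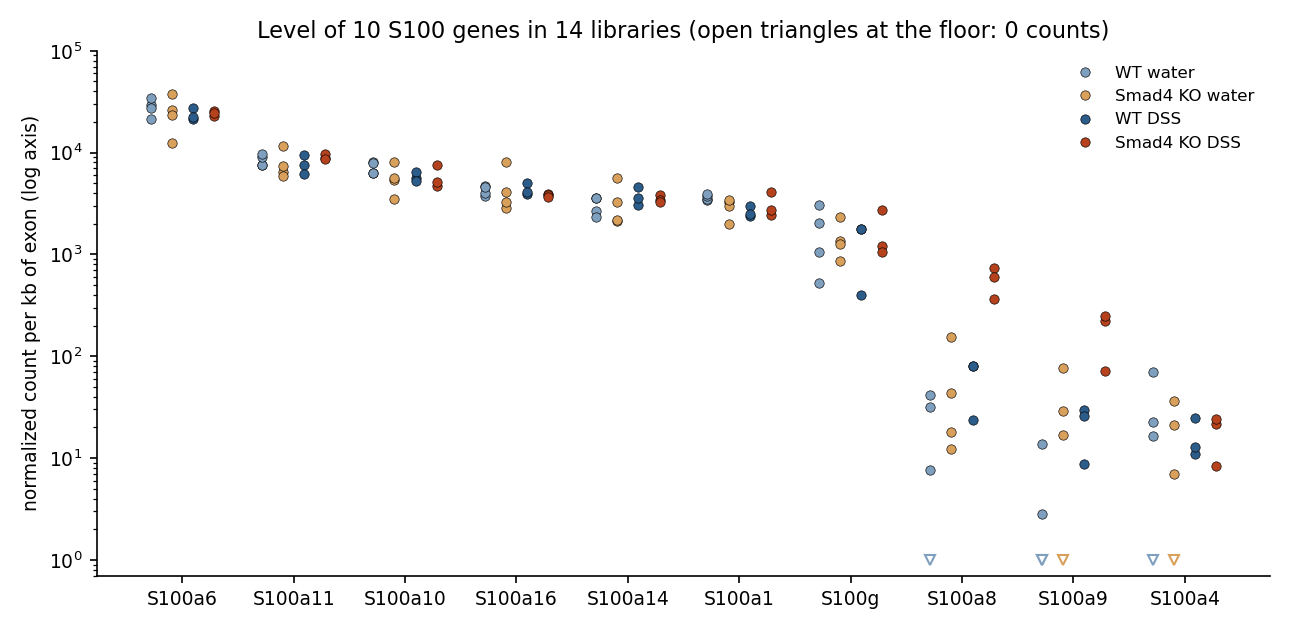
Level of the 10 S100 genes in each of the 14 libraries, in normalized counts per kb of exon on a log axis, with 1 point per library colored by group and genes ordered from the highest to the lowest mean. Libraries with 0 counts are open triangles at the floor. The 3 Smad4 KO DSS libraries of S100a8 lie above all others of that gene, while the 7 genes from S100a6 to S100g show overlapping groups apart from S100a1, whose WT water points lie above its Smad4 KO water and WT DSS points.

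S100a8 was scarcely transcribed in the WT epithelium on water, with 2.96, 12.4, 16.3 and 0 normalized counts in replicates 1 to 4. In WT after DSS it had 9.20, 31.1 and 31.2. In the Smad4 KO epithelium on water it had 7.05, 4.77, 60.1 and 17.1, the first of which is the library with Smad4 at the WT level. After DSS the Smad4 KO libraries had 288, 237 and 142, each above all 11 other libraries. The highest of the others was Smad4 KO water replicate 3. The raw counts behind them were 275, 240 and 140, against 10, 34 and 37 in WT after DSS. In WT water replicate 4 the raw count was 0, and a count of 0 allows up to 3 counts, or 6.42 normalized counts, there.

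S100a9 followed S100a8 at a lower level. Its normalized counts were 1.48, 7.10, 0 and 0 in WT on water and 4.60, 15.6 and 13.5 in WT after DSS. In the Smad4 KO it had 8.81, 0, 40.3 and 15.0 on water and 115, 131 and 37.6 after DSS. The raw counts after DSS were 110, 133 and 37 in the Smad4 KO, against 5, 17 and 16 in WT. Smad4 KO DSS replicate 3, the lowest of its group for both genes, lay above every WT library but below Smad4 KO water replicate 3 for S100a9. The ratio of S100a8 to S100a9 per kb ran from 1.07 to 5.04 in the 11 libraries in which S100a9 was counted, and was 2.40 to 5.04 in the Smad4 KO after DSS and 2.66 to 3.08 in WT after DSS. The low end, 1.07, rests on 8 counts of S100a8 and 10 of S100a9 in the library labelled Smad4 KO water replicate 1, too few to order the 2 genes there.

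**Figure D2:**
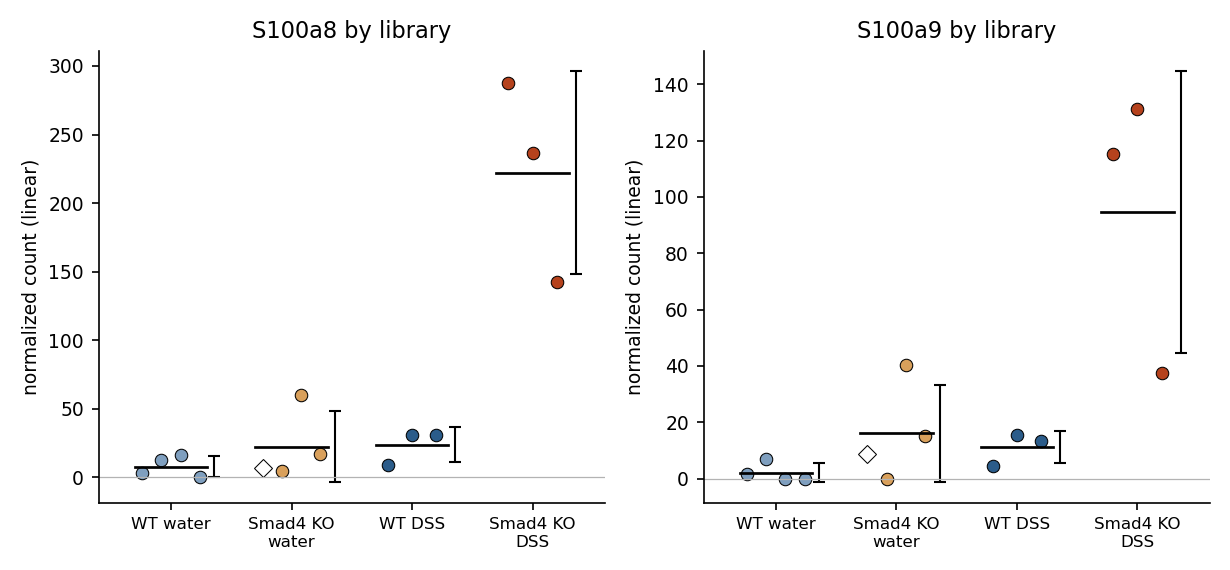
Normalized counts (linear axis) of S100a8 (left) and S100a9 (right) in each library of the 4 groups, with 1 point per library, a line at the group mean and a bar of ± 1 SD beside it. The open diamond is the library labelled Smad4 KO water replicate 1, which has Smad4 at the WT level. The Smad4 KO DSS libraries reach 288 for S100a8 and 131 for S100a9, and in both panels Smad4 KO water replicate 3 is the highest of the water libraries.

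Comparing Smad4 KO with WT after DSS, the contrast by which S100a8 and S100a9 were chosen, S100a8 had a mean of 222 ± 73.9 normalized counts (SD, n = 3) in the Smad4 KO. WT had 23.8 ± 12.7 (SD, n = 3), and the log2 fold change was 3.21 (SE 0.41), or 9.27-fold. S100a9 had 94.6 ± 50.03 (SD, n = 3) and 11.2 ± 5.82 (SD, n = 3), a log2 fold change of 3.06 (SE 0.54) or 8.35-fold. These were ranked 12 and 14 among the log2 fold changes of the 15127 genes tested, from the highest down. All Smad4 KO libraries lay above all WT libraries for these 2 of the 10 genes, as they did for 10.4% of all genes tested, and nothing is read from that count since the genes were picked on it. The other 8 genes had log2 fold changes from -0.17 (S100a16) to 0.35 (S100g), and the libraries of the 2 genotypes overlapped for each of them. When only libraries whose names share the prefix D were compared (2 WT and 3 Smad4 KO), S100a8 had a log2 fold change of 3.46 and S100a9 of 3.22.

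On water, a comparison that was not used to choose the genes, 0 of the 10 passed the edgeR test between Smad4 KO and WT, where 0.00661% of all genes (1 of 15127) did. At an unadjusted p under 0.05, 3084 genes passed, and DESeq2 called 768. The calprotectin genes had the 2 largest estimates. S100a8 averaged 22.3 ± 25.8 normalized counts in the Smad4 KO against 7.92 ± 7.70 for WT (SD, n = 4 each), and its log2 fold change was 1.47 (SE 1.01, edgeR adjusted p = 0.43). S100a9 had 16.03 ± 17.3 (SD, n = 4) and 2.15 ± 3.38 (SD, n = 4), a log2 fold change of 2.63 (SE 1.24, edgeR adjusted p = 0.26). Without Smad4 KO water replicate 3 they were 0.27 and 1.63, and without WT water replicate 2, the WT library with the most S100a9, the estimate for S100a9 was 4.26. When the library with WT-level Smad4 was left out they were 1.77 and 2.84.

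In the WT epithelium, the means on water and after DSS were 7.92 and 23.8 normalized counts for S100a8 and 2.15 and 11.2 for S100a9. The log2 fold changes were 1.55 (SE 0.83) and 2.06 (SE 0.95), and the water and DSS libraries overlapped for both. The estimate for S100a9 was 3.69 without WT water replicate 2 and between 1.74 and 2.44 when each other library was left out in turn. In the Smad4 KO the corresponding means were 22.3 and 222 for S100a8 and 16.03 and 94.6 for S100a9. All 3 DSS libraries lay above all 4 water libraries for S100a8 (log2 fold change 3.29, SE 0.68), as they did for 4.6% of the genes tested, and overlapped them for S100a9 (2.53, SE 0.84). All Smad4 KO DSS libraries but no Smad4 KO water library had the name prefix D, so prefix and treatment cannot be told apart here. Without Smad4 KO water replicate 3 the estimates were 4.5 for S100a8 and 3.52 for S100a9, and without the library labelled replicate 1 they were 2.98 and 2.32. The 2 responses and the contrast between genotypes share libraries, and since S100a8 and S100a9 were picked on these samples no test of the difference in response is given for them.

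**Figure D3:**
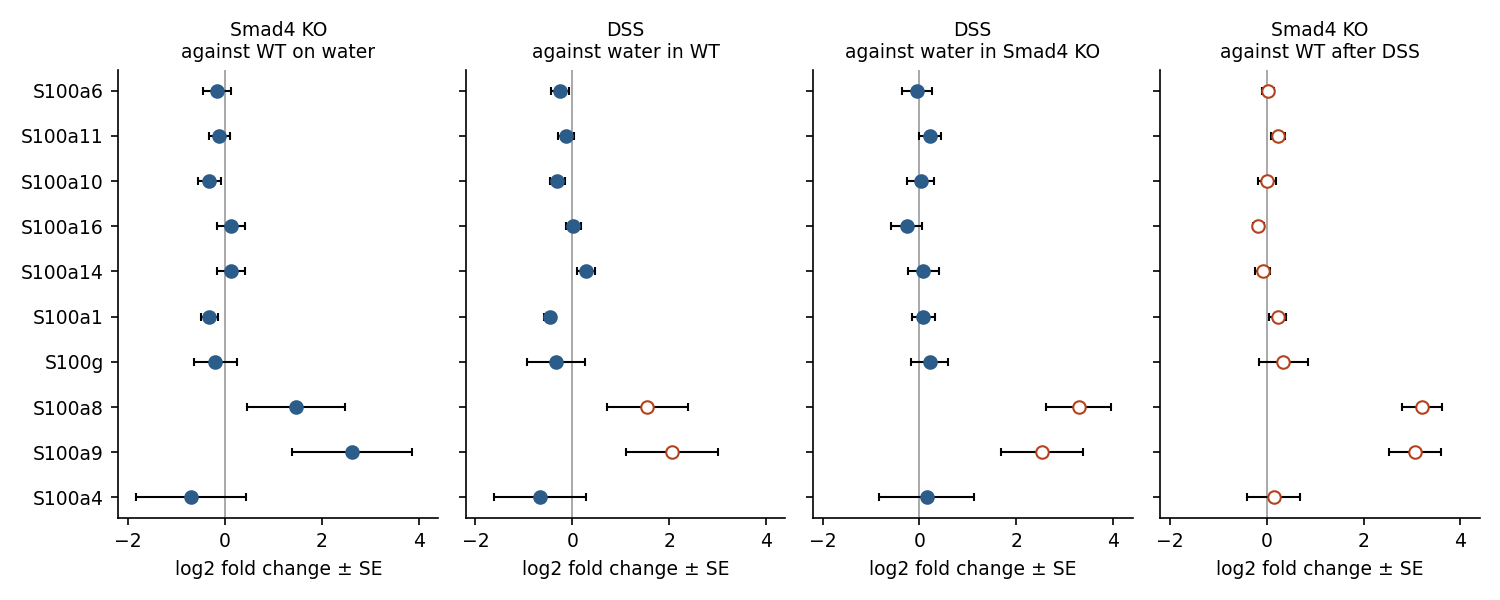
Log2 fold changes (points) with SE (bars) of the 10 S100 genes in the 4 comparisons, from edgeR fits of the 2 groups compared. Filled points were tested, and open points are estimates given without a test because the genes were chosen by those values. In the right panel S100a8 and S100a9 stand at 3.21 and 3.06 and the other 8 genes between -0.17 and 0.35.

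Of the other members, S100a1, a regulator of calcium handling best known in muscle, had 2369, 2413, 2590 and 2742 normalized counts in WT on water. It had 2249, 2079, 1394 and 2350 in the Smad4 KO on water, each below all WT water libraries, and the log2 fold change was -0.33 (SE 0.18, edgeR adjusted p = 0.31). Such an order, all Smad4 KO below all WT, was seen for 5.21% of the genes tested. After DSS, WT had 1666, 2066 and 1750, again below all WT water libraries, as for 11.6% of the genes tested. The log2 fold change was -0.47 (SE 0.12, edgeR adjusted p = 0.096), and DESeq2 gave an adjusted p of 0.010. Within the libraries of prefix D it was -0.36 (edgeR adjusted p = 0.34). The 2 highest WT water libraries for S100a1 were those with mitochondrial shares of 30.6% and 32.8%, and the part of this share in the difference was not tested. With mitochondrial genes left out of the counts the log2 fold change was -0.48. The Smad4 KO after DSS had 2817, 1705 and 1877, overlapping its water libraries.

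S100a10, the annexin A2 partner, had 7627 to 9736 normalized counts in WT on water (mean 8634 ± 1148, SD, n = 4) and 4202 to 9890 in the Smad4 KO on water (6871 ± 2333, SD, n = 4). After DSS the ranges were 6311 to 7807 in WT and 5648 to 9166 in the Smad4 KO. All 4 groups overlapped, and its log2 fold changes ran from -0.33 on water to 0.03 for DSS against water in the Smad4 KO. S100a10 and S100a1 followed each other over the 14 libraries (Pearson r = 0.891 of the log2 normalized counts), the closest pair among the 10 genes, with S100a8 and S100a9 next (r = 0.885). These correlations are a description of 14 libraries that share 4 groups and a normalization. S100a8 and S100a9 were both named for high counts in the Smad4 KO after DSS, so their correlation is no separate result.

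S100a6, the most abundant member, had 15456 to 24943 normalized counts in WT on water and 8979 to 27047 in the Smad4 KO on water. After DSS it ran from 15349 to 19633 in WT and from 16294 to 18370 in the Smad4 KO, the narrowest range of the 4 groups. S100a11, an annexin A1 partner, had group means from 3959 ± 825 (WT DSS) to 4660 ± 270 (Smad4 KO DSS; SD, n = 3 each). S100a14 had means from 3301 ± 692 (WT water, SD, n = 4) to 4031 ± 837 (WT DSS, SD, n = 3), and S100a16 from 6204 ± 224 (Smad4 KO DSS, SD, n = 3) to 7441 ± 3859 (Smad4 KO water, SD, n = 4). The groups of these genes overlapped in all comparisons. Within the Smad4 KO water group, replicate 4 had the highest value of all 14 libraries for S100a6, S100a10, S100a11, S100a14 and S100a16, with 13086 normalized counts of S100a16 where the next highest library had 8069. Replicate 3, the library with the most S100a8 and S100a9 on water, had the lowest of all libraries for S100a1, S100a6 and S100a10, and replicate 2 the lowest for S100a11, S100a14 and S100a16. Over replicates 2 to 4 alone, without the library with WT-level Smad4, the means on water were 1941 for S100a1, 8.51 for S100a4, 17629 for S100a6, 6967 for S100a10, 4222 for S100a11, 3597 for S100a14, 7687 for S100a16 and 709 for S100g, and none of the members was called.

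S100a4, which is abundant in stromal and immune cells, had the lowest mean level per kb over the 14 libraries, with 0 to 20 raw counts per library. Its means were 15.9, 9.46, 9.55 and 10.6 normalized counts in WT water, Smad4 KO water, WT DSS and Smad4 KO DSS. WT water replicate 3 and Smad4 KO water replicate 2 had 0 counts, which allows 4.89 and 3.58 normalized counts. S100g varied more between the libraries of a group than between groups. It had 503, 251, 1469 and 983 normalized counts in WT on water and 653, 415, 601 and 1112 in the Smad4 KO on water. After DSS it had 190, 856 and 850 in WT and 582, 512 and 1320 in the Smad4 KO. Its group means lay between 632 and 804, while single libraries spanned 190 to 1469.

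None of the 8 members that could be tested for the response to DSS passed the edgeR test. In WT, 0 of 8 were called, where 0.0% of all genes were (3662 of 15127 at an unadjusted p under 0.05, and 1777 by DESeq2, S100a1 among them). In the Smad4 KO, 0 of 8 were called against 0.00661% of all genes, with 964 genes at an unadjusted p under 0.05 and 71 called by DESeq2. The difference of the DSS responses, Smad4 KO minus WT, was called for 0 of 8 and for 0.00661% of all genes, with 1135 at an unadjusted p under 0.05 and 8 called by DESeq2. The single gene called by edgeR in the last 2 and in the water comparison was Rpl34, a ribosomal protein gene with near-identical copies in the genome, which makes its counts uncertain.

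Outside these 10, 9 genes named after S100 proteins were looked for and 8 were found in the table. S100a13, which takes part in the release of proteins without a signal peptide, and S100pbp passed the count filter. S100pbp encodes a binding protein of S100P rather than an S100 protein. On water, S100a13 averaged 1159 ± 217 normalized counts for WT and 685 ± 291 for the Smad4 KO (SD, n = 4 each), with the libraries overlapping (log2 fold change -0.76, edgeR adjusted p = 0.19), and 680.5 ± 356 (SD, n = 3) over Smad4 KO replicates 2 to 4. After DSS these means were 799 ± 160 and 683 ± 79.9 (SD, n = 3 each; -0.22, edgeR adjusted p = 0.52). S100pbp had 291 ± 73.5 (SD, n = 3) and 233 ± 14.5 (SD, n = 3) after DSS (-0.32, edgeR adjusted p = 0.47). After DSS 0 of these 2 were called, where 0.747% of all genes (113 of 15127, 50 higher and 63 lower in the Smad4 KO) were. The other 6, S100a3, S100a5, S100a7a, S100a7l2, S100b and S100z, had at most 11 raw counts in a library.

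Receptors and signaling genes linked with calprotectin were mostly uncalled. Between Smad4 KO and WT after DSS, 6 of 15 tested genes of this list had log2 fold changes above 0 and 9 below (median -0.04, against 0.00 over all genes tested). In this comparison 0.747% of all genes were called, and 1 of the 15. This was Il17rc, a subunit of the receptor for IL-17, a cytokine known to induce S100a8 and S100a9 in epithelia. It was lower in the Smad4 KO, with 2553, 2564 and 2697 normalized counts against 3652, 4424 and 3951 in WT (log2 fold change -0.62, SE 0.10, edgeR adjusted p = 0.033). On water Il17rc averaged 3240 ± 1847 in the Smad4 KO and 5512.5 ± 1256 in WT (SD, n = 4 each), with the libraries overlapping (log2 fold change -0.77, edgeR adjusted p = 0.22). For DSS against water in WT its log2 fold change was -0.46 (edgeR adjusted p = 0.17). Tlr4 and Ager are named as the known receptors. Tlr4 had 430 ± 61.7 in WT and 449 ± 39.3 in the Smad4 KO after DSS (SD, n = 3 each). On water it had 239 ± 45.4 and 517 ± 189 (SD, n = 4 each, log2 fold change 1.11, edgeR adjusted p = 0.15). Over Smad4 KO water replicates 2 to 4 the Tlr4 mean was 548 ± 219 (SD, n = 3). Ager had few counts, 12 to 74 per library.

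The partners of the intracellular S100 proteins were abundant, and 0 of 12 were called in any of the 4 comparisons. Between Smad4 KO and WT after DSS, 7 of the 12 had log2 fold changes above 0, with a median of 0.04. Anxa2 averaged 14895 ± 781 normalized counts in the Smad4 KO against 13433 ± 320 for WT (SD, n = 3 each, log2 fold change 0.15, edgeR adjusted p = 0.49). Anxa1 had 4928, 3558 and 3899 against 3097, 2497 and 2506 (0.62, edgeR adjusted p = 0.098). All Smad4 KO libraries lay above all WT libraries for Anxa1, as they did for 10.4% of the genes tested. Of the calcium and vitamin D genes that act with S100g, 7 of 10 could be tested and 0 were called in any comparison. Trpv6, the apical calcium channel, had 630 ± 289 in the Smad4 KO and 1097 ± 551 in WT after DSS (SD, n = 3 each, log2 fold change -0.80, edgeR adjusted p = 0.38), and Vdr, the vitamin D receptor, 5806 ± 382 and 7118 ± 530 (SD, n = 3 each, -0.29, edgeR adjusted p = 0.24). The epidermal differentiation genes that neighbor the S100 cluster gave 0 calls among 10 tested in any comparison, and 6 of the 20 listed had 0 counts in all libraries.

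Antimicrobial and inflammatory genes of the epithelium gave 0 calls among 25 tested in the 4 comparisons and in the difference of the responses. Their log2 fold changes were above 0 for 19 of 25 between Smad4 KO and WT after DSS (median 0.15) and for 18 of 25 between DSS and water in WT (median 0.50, against -0.01 over all genes tested). Reg3g, Lcn2 and Cxcl5 are named as well-known members of the list, chosen after their values had been seen. Lcn2, an iron-chelating defense protein, had 315, 471 and 431 normalized counts in WT after DSS and 526, 482 and 325 in the Smad4 KO, with the genotypes overlapping (log2 fold change 0.13, edgeR adjusted p = 0.79). Reg3g, a bactericidal lectin, had 12027 to 36499 in WT and 20048 to 77590 in the Smad4 KO after DSS (0.78, edgeR adjusted p = 0.48). Cxcl5, a neutrophil chemoattractant, had 165, 143 and 135 in WT and 272, 302 and 172 in the Smad4 KO (0.76, edgeR adjusted p = 0.15). Estimates further from 0 in this comparison were those of Defb37 (1.51), Cxcl2 (1.09) and Ang4 (-1.43), all uncalled. The list is not set against S100a8 and S100a9, since those genes were chosen by this contrast.

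**Figure D4:**
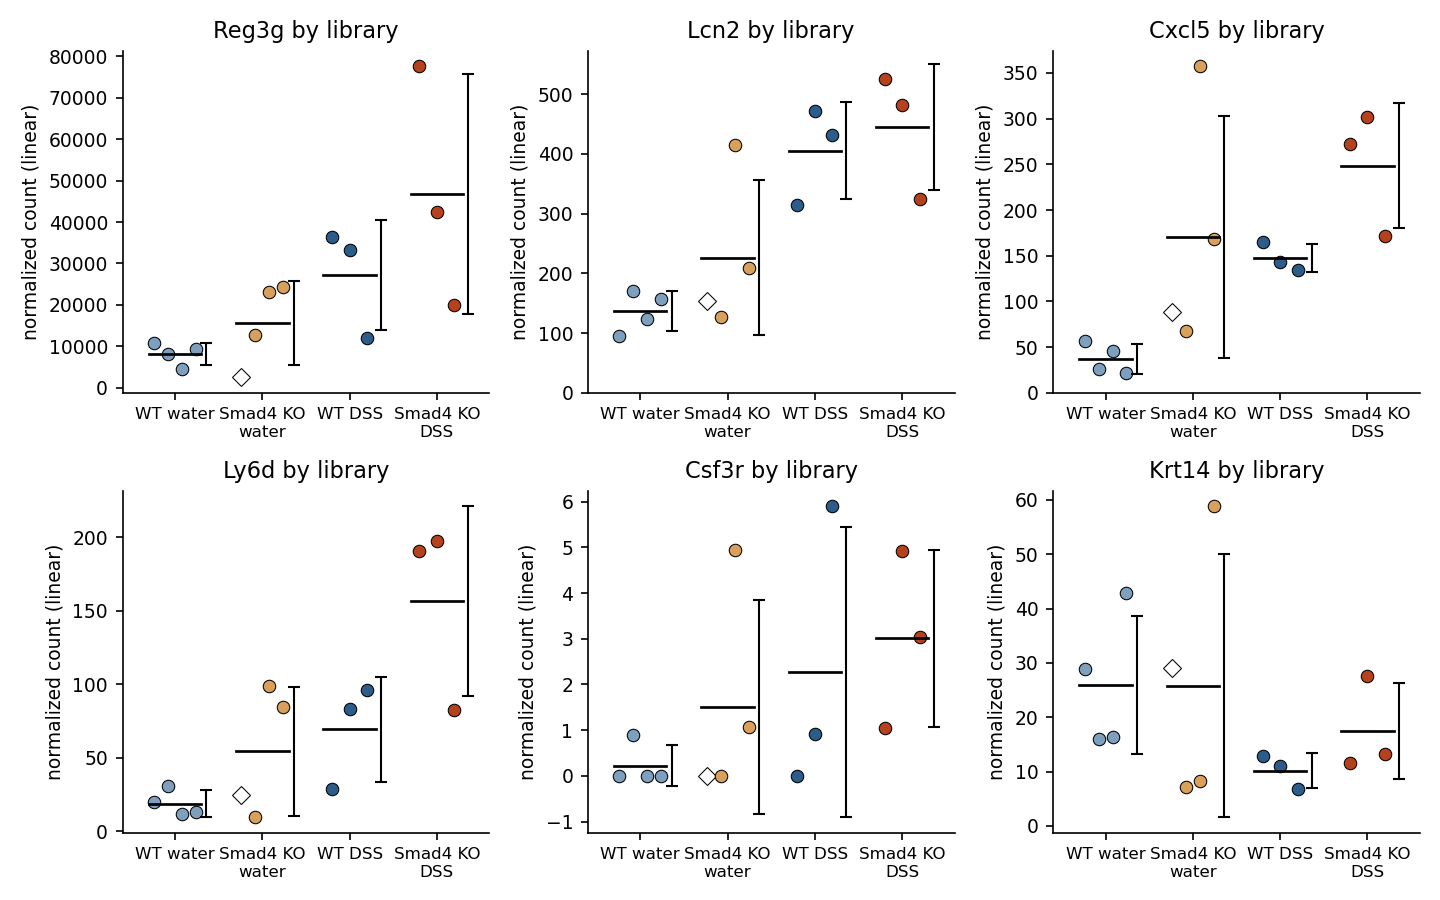
Normalized counts (linear axis, a separate scale for each gene) of Reg3g, Lcn2, Cxcl5, Ly6d, the neutrophil receptor gene Csf3r and the squamous keratin Krt14 in each library, with 1 point per library, a line at the group mean, a bar of ± 1 SD and an open diamond for the library labelled Smad4 KO water replicate 1. Lcn2 reaches 471 in WT and 526 in the Smad4 KO after DSS, and Csf3r stays at or below 5.90 in all libraries.

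Since neutrophils hold large amounts of S100a8 and S100a9, markers of other cells were measured in the same libraries. Without Ly6g, which had about the same level in all 4 groups (means 1101 to 1458 normalized counts), and Itgam (60.6 to 123), the other 18 neutrophil markers together summed to 3.70 to 17.1 in WT on water, 0 to 48.2 in the Smad4 KO on water, 11.9 to 41.3 in WT after DSS and 25.4 to 33.5 in the Smad4 KO after DSS. The last 2 ranges overlapped. With Ly6g and Itgam kept, the 20 markers summed to 976 to 1581 in WT and 1279 to 1483 in the Smad4 KO after DSS. Leaving these 2 genes out was not planned. Of single markers, Elane, which is transcribed mainly in neutrophil precursors, had 0 counts in all libraries, and Mmp8 had 0 in all DSS libraries. After DSS, Csf3r had means of 2.27 in WT and 3.01 in the Smad4 KO, Cxcr2 2.40 and 0.34, and Mmp9 4.08 and 2.34. Retnlg and Stfa2l1 were counted only in the Smad4 KO after DSS, with at most 1 raw count in a library. The highest sum of all libraries, 48.2, was in Smad4 KO water replicate 4, where S100a8 was 17.1, and Smad4 KO water replicate 3, with S100a8 at 60.1, had a sum of 39.5. Of the 4 neutrophil markers that passed the filter, 3 had log2 fold changes above 0 between Smad4 KO and WT after DSS (median 0.36), among them Hdc (means of 13.3 and 9.11) and Il1b (7.14 and 4.29). None of the 4 was called by edgeR in any comparison, and the part of neutrophils in the levels of S100a8 and S100a9 was not tested.

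Markers of other cells differed in part between the same groups. Between Smad4 KO and WT after DSS, 0.747% of all genes tested (113 of 15127) were called. All 6 tested fibroblast genes had log2 fold changes above 0 in this comparison (median 2.81), and 3 were called higher in the Smad4 KO. These were Col3a1 (42.9, 53.2 and 49.8 against 1.84, 0.91 and 5.06 normalized counts, log2 fold change 4.14, edgeR adjusted p = 0.0080), Col1a2 (3.13, edgeR adjusted p = 0.046) and Col1a1 (2.60, edgeR adjusted p = 0.046), the genes of type III and type I collagen. The summed fibroblast list was 366 to 475 in the Smad4 KO and 170 to 289 in WT after DSS, and none of its 10 genes was at 0 in all libraries. Its part in the S100 values was not tested. The macrophage and monocyte list summed to 324 to 373 in the Smad4 KO and 274 to 605 in WT after DSS, and the lymphoid list to 519 to 774 and 355 to 751, with 0 calls in either. The squamous list summed to 2034 to 2826 in the Smad4 KO and 1666 to 2002 in WT after DSS, without overlap. Most of this was Serpinb5 (means 2119 and 1745), and Ly6d had means of 157 and 69.3. Without these 2 genes the list summed to 42.9 to 68.0 and 40.5 to 56.7, and leaving them out was not planned. Of the 14 listed genes, 4 had 0 counts in all libraries, Krt5 and Trp63 among them. Of 5 tested squamous genes, 4 had log2 fold changes above 0 (median 0.28) and 0 were called. The part of squamous cells in the S100 values was not tested. Of 14 colon epithelium markers, 12 had log2 fold changes below 0 between Smad4 KO and WT after DSS (median -0.11). Among them Krt20 (log2 fold change -0.85, edgeR adjusted p = 0.032) and Aqp8 (-1.0, edgeR adjusted p = 0.043) were called lower.

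The genes most like the mean of S100a8 and S100a9 over the 14 libraries, among 11556 genes outside the S100 family with a mean of at least 50 counts, included Ly6d (Pearson r = 0.94), Bnip3 (0.92), Tnfrsf1b (0.91) and Gyk (0.89). Ly6d, a membrane-anchored surface protein, had means of 18.8 ± 8.98 in WT water (SD, n = 4), 54.4 ± 43.9 in Smad4 KO water (SD, n = 4), 69.3 ± 35.9 in WT DSS (SD, n = 3) and 157 ± 64.5 in Smad4 KO DSS (SD, n = 3). Ly6d was also on the squamous list. Bnip3, a mitophagy receptor, had means of 184, 275, 287 and 585 in the same order. Tnfrsf1b encodes a receptor for tumor necrosis factor, and its means were 857, 1496, 1546 and 2267. The means of Ly6d, Bnip3, Tnfrsf1b and Gyk were lowest in WT on water and highest in the Smad4 KO after DSS. S100a8 and S100a9 had the same lowest and highest groups. Since the genes were picked for likeness to S100a8 and S100a9, this is no separate result. Most like S100g were Crabp2 (r = 0.82), Fyn (0.81), Pmepa1 (0.78), L3mbtl2 (0.77) and Cd97 (0.76). These are descriptions over 14 libraries that share groups and depth, on log2 of the normalized count plus 1.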

How the data were processed

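RNA-seq of EDTA-isolated mouse colon epithelium was read from 14 libraries. The authors aligned 150-bp paired-end reads of poly(A) libraries to mm9 with Hisat2 v2.0.5 and counted them on genes with featureCounts v1.5.0-p3, and the deposited values are raw whole-number counts for 37680 genes. Gene positions and exon lengths come from GENCODE M1 (mm9).

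The 15127 genes that reached 10 counts in 3 or more libraries entered edgeR 4.0.16 (TMM, quasi-likelihood test), with only the 2 groups compared in a fit and all 14 libraries for the difference of the responses, at a Benjamini-Hochberg adjusted p of 0.05. Normalized counts are counts over library total and TMM factor, times the mean effective library size. Alternatives were DESeq2 1.42.0, 1 model of all libraries, other size factors and filters, blocks of replicate number or name prefix, and each library left out. Removal of mitochondrial genes and the 1 model without Smad4 KO water replicate 1 were added after the data were seen. The members and lists were chosen with earlier results of these data known. All members, S100 genes past the filter, up to 4 called genes a list and the 5 genes most like a member were named (1 of them is not reported here), and others for their known role. On simulated data of 15127 genes with 200 changed, Smad4 KO against WT after DSS recovered 89 of 100 2-fold and 97 of 100 4-fold changes (11 false calls), and the water comparison 47 and 94 (4 false calls). The changed genes were drawn from those with a mean of at least 50 counts. S100a4, S100a8 and S100a9 were below that on water, and S100a4 also after DSS, so this recovery does not apply to them there. The p-values measure the spread between libraries, taken as 1 mouse each, and limits for a count of 0 cover counting error only.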

Additional observations from a re-analysis of the deposited data

How the results depend on the processing

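Of 590 member estimates under other settings, 53 changed sign, 18 of them untested ones for Smad4 KO against WT after DSS and 35 tested and uncalled in both, and 1 became a call. S100a8 and S100a9 kept log2 fold changes after DSS of 2.83 to 3.46 and 2.70 to 3.44 without 1 library (Smad4 KO against WT). Counts of genes called depended on the setting, and the cause was not tested. Smad4 KO against WT after DSS, 113 genes were called, 2 with all 14 libraries in 1 model, 8 in that model when Smad4 KO water replicate 1 was left out, 499 by DESeq2, 342 without the filter, 57 with the replicate block, 42 with the prefix block and 42 with D libraries only. On water (1 called) the counts were 1276 in 1 model, 768 by DESeq2, 37 without the filter, 473 with the replicate block and 125 with the prefix block. For DSS in WT (0 called) they were 1777 by DESeq2, with 1 of 8 members (S100a1, log2 fold change -0.47), 356 without the filter, 47 with the replicate block and 9 with the prefix block or D libraries only. For DSS in the Smad4 KO (1 called) they were 10 in 1 model, 71 by DESeq2, 16 without the filter and 15 with the replicate block, and the prefix block could not be fitted, since prefix and treatment cannot be told apart. For the difference of the responses (1 called) they were 8 by DESeq2 and 2 without the filter. Without 1 library the counts were 27 to 96 after DSS, 1 to 1740 on water (1740 without Smad4 KO water replicate 4, 13 without replicate 1), 0 to 418 for DSS in WT, 1 to 3 for DSS in the Smad4 KO and 1 to 5 for the difference.

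Replicate numbers did not pair the samples (correlation of deviations -0.081 to 0.348). With the replicate block the log2 fold changes that turned were S100a16 (-0.005) and S100g (0.005) on water, S100a4 (0.47) for DSS in WT, and S100a6 (0.29) and S100a16 (0.18) for DSS in the Smad4 KO, and no member was called. With the prefix block S100a4 (0.76) and S100a6 (0.27) turned on water, and S100a11 (0.16) and S100g (0.47) for DSS in WT, the same with D libraries only.

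Without 1 library the turning estimates ranged, on water, from -0.52 to 0.28 (S100g), -1.43 to 0.22 (S100a4), -0.36 to 0.002 (S100a11), -0.44 to 0.053 (S100a6), -0.27 to 0.29 (S100a14) and -0.31 to 0.29 (S100a16). For DSS in WT they ranged from -0.09 to 0.092 (S100a16), -0.62 to 0.15 (S100g), -1.11 to 0.19 (S100a4) and -0.30 to 0.008 (S100a11). For DSS in the Smad4 KO they ranged from -0.24 to 0.89 (S100a4), -0.088 to 0.48 (S100a14), -0.17 to 0.23 (S100a1), -0.22 to 0.26 (S100a10), -0.28 to 0.22 (S100a6), -0.43 to 0.16 (S100a16) and -0.35 to 0.54 (S100g). For Smad4 KO against WT after DSS, given without a test, they ranged from -0.02 to 0.37 (S100a1), -0.13 to 0.58 (S100a4), -0.04 to 0.14 (S100a6), -0.24 to 0.14 (S100a10), -0.21 to 0.09 (S100a14) and -0.21 to 0.63 (S100g). Low counts limit S100a4 in all groups, and S100a8 and S100a9 on water and in WT after DSS.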
